A study of Mus musculus with 30 samples.

Results

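Tcstv1, Tcstv3, Usp17la, Zfp352 and Tdpoz1 are mouse genes known for transcription at the two-cell stage of the embryo. Their levels were read in mouse embryonic stem (ES) cells over 72 h of a retinoic acid (RA) time course. Members were the probe sets annotated with exactly 1 of these 5 symbols, which gave 6 of 34945 tested probe sets and 5 of 18193 genes. Tcstv1 is read by 1420729_at, Tcstv3 by 1451852_at, Usp17la by 1420773_at and Tdpoz1 by 1425375_at, while Zfp352 has a pair of probe sets, 1425879_at and 1425880_x_at. Within the array set that runs to 72 h, Usp17la and Tcstv1 were higher at 24 h than at 12 h, and Zfp352 from 36 h. By the main test Tcstv3 was higher from 36 h, and its dim 24 h arrays already lay above its 12 h arrays. At 72 h Usp17la was 26.3-fold, and Zfp352 4.54-fold or 5.65-fold by its probe sets, above the 12 h arrays of the same array set, and Tdpoz1 stayed near the bottom of the scale.

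In the mouse, the embryo first makes large amounts of its own RNA at the two-cell stage, and the genes of that wave are mostly silent afterwards. A small and changing fraction of cultured ES cells passes through a state in which part of this programme is transcribed again, among it the Zscan4 and Tcstv families, genes driven by MERVL repeats, and targets of the transcription factor DUX. RA is made from vitamin A, binds nuclear receptors and drives ES cells out of pluripotency. These arrays read whole cultures, so more cells in that state and more RNA per such cell cannot be told apart in any value below.

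KH2 mouse ES cells grown on feeder fibroblasts were measured on 30 Affymetrix mouse arrays, and 0.3 uM RA and 200 ng of RNA per array are stated in the labels. RNA was taken at 8 times (8, 12, 16, 24, 36, 48, 60 and 72 h), with 3 arrays per time, save that 12 h and 24 h each have 3 arrays lettered A-C and 3 lettered D-F. The 8 h group is labelled baseline and every later group retinoic acid. Whether the 8 h cells had received RA is not in the labels. All arrays share 1 cell line, the feeders and a 30 min replating step that the labels describe in 2 ways, with RNA from the adhered cells or from the medium drawn off. Of 18 pluripotency markers, such as Pou5f1, the mean log2 intensity was 12.10 to 12.18 on the 8 h arrays. The values are log2 intensities with no detection calls. The arrays' lower quartiles lay between 4.73 and 4.85 and their medians between 6.34 and 6.39, and a change whose lower mean alone lies under 4.73 is written "at least". Where both means lie under 4.73 the difference is given as measured, near the bottom of the scale.

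A bacterial spike-in difference splits the arrays into a first set of 12 (8 h, 12 h A-C, 16 h, 24 h A-C) and a second of 18 (12 h D-F, 24 h D-F, and 36 h onward). It was 0.99 to 1.07 log2 in the first set and 1.34 to 1.63 in the second. Comparisons over time were therefore made within a set, and 72 h against 8 h, where time and array set cannot be told apart, is given only beside them. The comparisons of letters at 12 h and 24 h also cross the sets. Array C at 60 h stands apart from A and B in the values of all members but Tdpoz1, and the members' changes to or from 60 h are also given without it. Since the arrays of a group are not labelled as separate cultures, the p-values cover only the spread among these arrays, which may be technical. Tests are limma's moderated tests, two-sided, with Benjamini-Hochberg adjusted p over all 34945 probe sets and a call at adjusted p under 0.05. Errors after ± are standard errors (SE) of that fit unless SD is written.

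The promoter windows of the members are shown because 4 of the 5 genes were higher late in the time course. Windows from RefSeq (GRCm38.p6) are shown for 3 of the 5 genes, and those of Tcstv1 and Tcstv3 were not used here. Each line holds the 250 bases upstream of the annotated start, 5′ to 3′ on the gene's strand, in lower case, with matches to TATAA (the core of a TATA box) or TAATC (a core bound by paired-type homeodomain factors) on either strand in capitals.
Usp17la, chr7:104856766-104857015, plus strand: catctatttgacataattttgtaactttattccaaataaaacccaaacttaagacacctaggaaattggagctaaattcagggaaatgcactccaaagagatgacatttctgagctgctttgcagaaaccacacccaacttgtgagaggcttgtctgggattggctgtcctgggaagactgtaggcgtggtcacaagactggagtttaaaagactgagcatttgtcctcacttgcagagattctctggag
Zfp352, chr4:90218570-90218819, plus strand: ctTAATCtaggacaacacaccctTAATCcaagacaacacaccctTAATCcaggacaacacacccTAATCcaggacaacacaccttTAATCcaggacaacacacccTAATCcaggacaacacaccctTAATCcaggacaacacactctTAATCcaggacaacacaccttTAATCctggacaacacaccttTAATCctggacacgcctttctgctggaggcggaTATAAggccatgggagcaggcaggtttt
Tdpoz1, chr3:93676284-93676533, minus strand: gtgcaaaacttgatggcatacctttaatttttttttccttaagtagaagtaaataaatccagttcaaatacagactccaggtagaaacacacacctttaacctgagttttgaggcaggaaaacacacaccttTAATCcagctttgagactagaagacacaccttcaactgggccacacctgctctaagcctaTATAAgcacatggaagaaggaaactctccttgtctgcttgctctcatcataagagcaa

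The Zfp352 window held TAATC 10 times, in a short repeated unit, and 9 of these read on as TAATCC, the core bound by OTX and OBOX type factors. It held TATAA once, 28 bases from the start. The Tdpoz1 window held TATAA 58 bases and TAATCC 118 bases from the start, and the Usp17la window held neither. Of 32851 windows of the same length, 22.8% held TATAA, 19.8% TAATC and 6.25% TAATCC on either strand. The RA receptor half-site AGGTCA was in 14% of windows and in none of these 3. TAATCC matches are also TAATC matches.

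Usp17la, also named Dub1, encodes a deubiquitinating enzyme that takes ubiquitin off other proteins and was first known as a cytokine-induced gene of blood cells. At 8 h its log2 intensity was 5.40, 5.45 and 5.07. In arrays A-C it was 5.42, 5.24 and 5.38 at 12 h and 6.14, 7.20 and 6.35 at 24 h, with 5.21, 5.48 and 5.64 at 16 h between them. The 3 arrays of 24 h lay above all 9 earlier arrays of the set. Usp17la was higher at 24 h A-C than at 8 h by 1.26 ± 0.28 (adjusted p = 0.0013), than at 12 h A-C by 1.22 (adjusted p = 0.0022) and than at 16 h by 1.12 (adjusted p = 0.0038). Each of these comparisons called 1 of 6 member probe sets, beside 31.5%, 25.9% and 28.9% of all probe sets, and 0 of 6 were called at 16 h against 12 h A-C, beside 16.7%.

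In the second set, Usp17la stood at 6.29, 6.44 and 6.35 at 12 h D-F and at 8.57, 8.26 and 8.68 at 24 h D-F. It stood at 10.43, 10.31 and 9.70 at 36 h and at 9.80, 10.15 and 9.55 at 48 h. It stood at 12.14, 12.14 and 10.73 at 60 h and at 10.85, 11.08 and 11.30 at 72 h. By level the groups order as 12, 24, 48, 36, 72 and 60 h. The arrays of 36 h and 48 h overlap, as do those of 60 h and 72 h. Against 12 h D-F, Usp17la was higher at 24 h D-F by 2.15 ± 0.28 (adjusted p = 4.8e-06) and at 36 h by 3.79 (adjusted p = 1.6e-10). The differences were 5.31 at 60 h (adjusted p = 9.2e-14) and 4.72 at 72 h (adjusted p = 7.8e-13).

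Tcstv1 and Tcstv3 belong to the two-cell-stage variable group, a clustered family whose products have been tied to telomere length in mouse ES cells. Both lie on chromosome 13, with 26 annotated genes between them in the RefSeq order, 8 of which are protein coding. Tcstv1 lay between 3.03 and 4.11 on all 12 arrays of the first set and Tcstv3 between 3.30 and 3.71, under every array's lower quartile. By the main test no difference there was called, and such dim signal limits what could be read. The 24 h A-C arrays of Tcstv1 lay above its 12 h A-C arrays, by 0.51 ± 0.26 with both means dim (adjusted p = 0.17). That difference was called on only the groups compared (adjusted p = 0.038).

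Tcstv1 was at 3.55, 3.67 and 3.56 at 12 h D-F, and at 4.97, 4.94 and 5.30 at 24 h D-F. It was at 6.73, 6.75 and 6.52 at 36 h and at 6.72, 7.08 and 6.52 at 48 h. It was at 9.07, 9.02 and 7.64 at 60 h and at 7.76, 8.16 and 8.42 at 72 h. The arrays at 24 h all lay above those at 12 h and below those at 36 h, while 36 h overlapped 48 h. Tcstv1 was higher than at 12 h D-F by at least 1.47 ± 0.26 at 24 h (adjusted p = 0.00018), by at least 3.07 at 36 h (adjusted p = 1.6e-09) and by at least 4.52 at 72 h (adjusted p = 4.8e-13). The last is at least 22.9-fold.

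Tcstv3 was at 3.26, 3.50 and 3.49 at 12 h D-F and at 3.97, 3.86 and 4.22 at 24 h D-F. It was at 5.03, 5.28 and 5.02 at 36 h and at 5.02, 5.76 and 5.15 at 48 h. It was at 7.83, 7.60 and 6.20 at 60 h and at 6.45, 6.57 and 6.77 at 72 h. Its 24 h arrays did not overlap its 12 h arrays, but the difference of 0.60 ± 0.25, with both means dim, was not called (adjusted p = 0.08). It was called with array weights (0.67, adjusted p = 0.0051) and on only the groups compared (0.60, adjusted p = 0.0053). Tcstv3 was higher by at least 1.69 at 36 h (adjusted p = 5.6e-06) and by at least 3.18 at 72 h (adjusted p = 8.1e-11). Over the 18 arrays of the second set Tcstv1 and Tcstv3 correlated at r = 0.977, and over the 12 of the first set, where both are dim, at r = 0.21. The points share their arrays and times, and these values are descriptions.

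Zfp352, also listed as 2czf48, encodes a zinc finger protein. Its probe set 1425879_at lay between 5.65 and 6.29 on the 12 arrays of the first set, and by the main test no difference there was called. Its 16 h arrays lay below its 8 h arrays, by 0.39 (adjusted p = 0.21). The fall was called with array weights (adjusted p = 0.047) and on only the groups compared (adjusted p = 0.0066). On only the groups compared 1425880_x_at was also called lower (-0.30, adjusted p = 0.037). In the second set 1425879_at was at 6.39, 6.54 and 6.37 at 12 h D-F and at 6.36, 6.43 and 6.56 at 24 h D-F, which overlap. It was at 7.07, 7.26 and 7.20 at 36 h and at 7.34, 7.91 and 7.41 at 48 h. It was at 9.62, 9.67 and 8.18 at 60 h and at 8.56, 8.63 and 8.65 at 72 h. At 24 h, when Usp17la and Tcstv1 had risen, the difference of Zfp352 was 0.02 ± 0.24, with a 95% interval of -0.47 to 0.50 (adjusted p = 0.97). It was higher than at 12 h D-F by 0.74 at 36 h (adjusted p = 0.014), by 1.12 at 48 h (adjusted p = 0.00036) and by 2.18 at 72 h (adjusted p = 2.2e-08).

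The suffix _x_at marks probe sets with probes that can match other transcripts, and it is carried by 1 of the 6 member probe sets and by 5.83% of those tested. The Zfp352 probe set 1425880_x_at was at 7.60, 7.85 and 7.74 at 72 h, against 5.10, 5.21 and 5.39 at 12 h D-F. It was higher at 72 h by 2.50 ± 0.26 (adjusted p = 9.9e-09), beside the 2.18 of 1425879_at. The difference of 1425879_at minus 1425880_x_at kept between 0.48 and 1.33 on every array, with group means from 0.73 at 36 h to 1.20 at 12 h D-F. The probe sets correlated at r = 0.985 over 30 arrays. Every change of Zfp352 that was called with 1425879_at against 12 h D-F was also called with 1425880_x_at, and at 36 h against 24 h D-F only 1425880_x_at was called. Its difference there was 0.98 (adjusted p = 0.017), and that of 1425879_at was 0.73 (adjusted p = 0.054). The call of 1425880_x_at was lost without array D or F at 24 h or array A or B at 36 h (0.90 to 0.94, adjusted p = 0.054 to 0.071). In 6 of 18 alternative settings 1425879_at was called (adjusted p = 0.0046 to 0.04). Among them were array weights (adjusted p = 0.013), only the groups compared (adjusted p = 0.0046) and 1 probe set per gene (adjusted p = 0.04).

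Tdpoz1, also listed as 2cpoz56, encodes a protein with TRAF and POZ domains related to the ubiquitin ligase adaptor SPOP. It lay between 3.44 and 4.21 on the 12 arrays of the first set. In the second set it was at 3.88, 4.20 and 3.58 at 12 h D-F, at 4.48, 4.83 and 4.22 at 60 h and at 4.01, 3.99 and 4.93 at 72 h. On 28 of 30 arrays it was under 4.73, with array B at 60 h and array C at 72 h as the exceptions. The difference at 60 h from 12 h D-F was 0.62 ± 0.21, with both means dim, and was called (adjusted p = 0.015). It was 0.77 without array C at 60 h (adjusted p = 0.0065), and the call was lost without array B at 60 h (0.46, adjusted p = 0.1) or array F at 12 h (0.47, adjusted p = 0.094). At 72 h the difference was 0.43, with both means dim and 1 array of 3 above the others, and was not called (adjusted p = 0.09). It was called without array E at 12 h or array A or B at 72 h (0.57 to 0.58, adjusted p = 0.036 to 0.041).

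**Figure D1:**
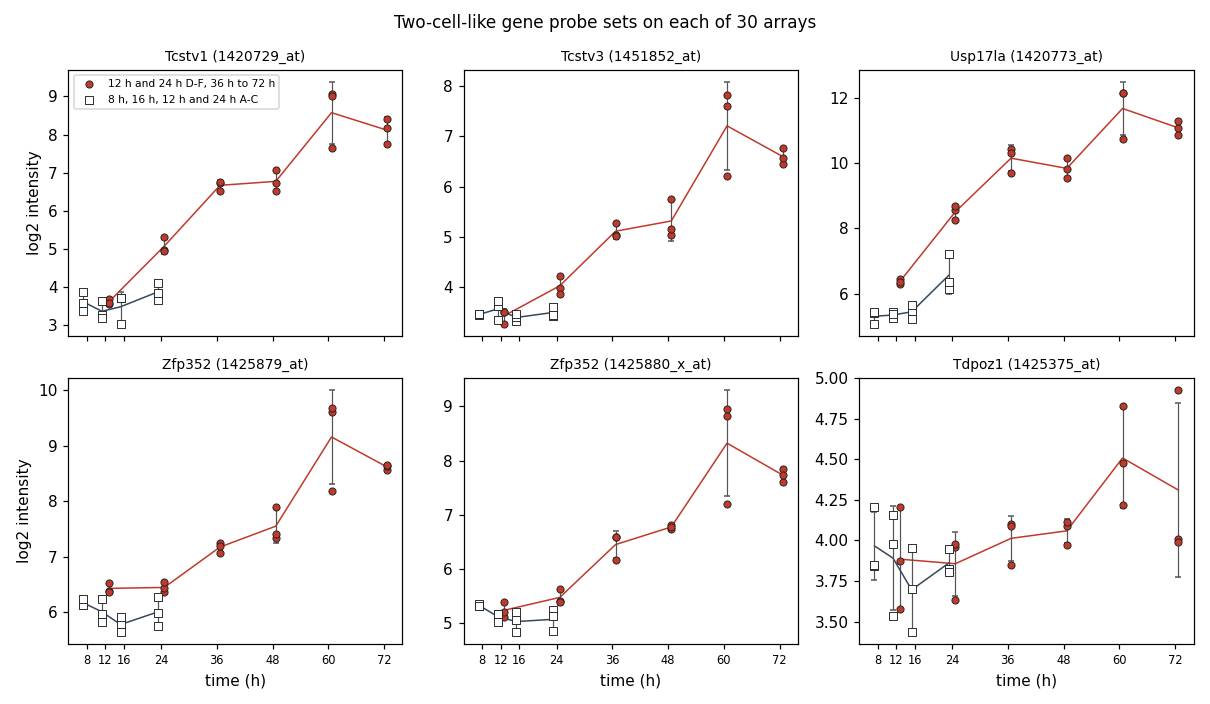
Log2 intensity (vertical axis) of each member probe set on each array against time in hours (horizontal axis, points moved slightly to the side of their time). Filled circles are the second array set and open squares the first, lines join group means and bars are SD of 3 arrays. In the second set Usp17la and Tcstv1 are higher from 24 h and Zfp352 from 36 h. Tcstv3 is called higher from 36 h, and its dim 24 h circles lie above its 12 h circles. These 4 genes have 1 array at 60 h well under the other 2, and Tdpoz1 has a vertical axis of under 2 log2 units and stays near 4.

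Counted over the members, 0 of 6 probe sets were called at 12 h A-C against 8 h and 0 of 6 at 16 h against 8 h, where 14.1% and 36.5% of all probe sets were called. At an unadjusted p under 0.05 limma also gave 0 in both. With 1 of 6 at 24 h A-C against 8 h, the first set holds no larger share of member calls of any size than of such calls over all probe sets. That 1 call, of Usp17la, was higher by at least 1 log2, beside 1.41% of all probe sets. Tcstv1, Tcstv3 and Tdpoz1 were dim throughout the first set, which limits what could be called. A moderated F test over its 4 groups called Usp17la only (adjusted p = 0.0014), 1 of 6 beside 47% of all probe sets.

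Against 12 h D-F, the members called higher were 2 of 6 at 24 h, 5 at 36 h, 5 at 48 h, 6 at 60 h and 5 at 72 h, and none was called lower. The shares of all probe sets called higher were 12.9%, 18.6%, 19.4%, 22.8% and 23.3%. Called and higher by at least 1 log2 were 2, 4, 5, 5 and 5 members, beside 0.701%, 2.26%, 3.99%, 5.88% and 6.01% of all. The median change of the 6 was 3.44 at 60 h and 2.84 at 72 h, beside -0.07 and -0.08 over all probe sets. Without array C at 60 h, 6 of 6 were again called higher at 60 h, beside 23.2% of all, with a median of 3.98 and with 5.78 for Usp17la (adjusted p = 2.5e-15). The F test over the 6 groups of the second set called 5 of 6, all but Tdpoz1 (adjusted p = 0.052), beside 60.9% of all. Without array C at 60 h it called 6 of 6, beside 64.4%. Against 8 h, across the array sets, 5 of 6 were higher at 72 h, beside 23.6%, and Usp17la differed by 5.77 (adjusted p = 1e-14).

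**Figure D2:**
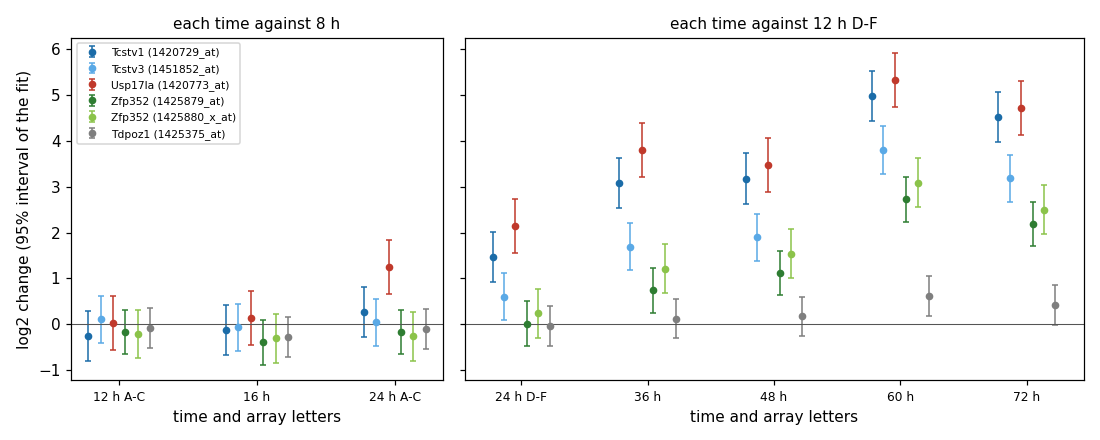
Log2 change of each member probe set (points) with the 95% interval of the fit (bars), each time against 8 h in the first array set and against 12 h D-F in the second. In the first set only Usp17la at 24 h has an interval clear of 0 on the higher side. In the second Usp17la and Tcstv1 lead, Tcstv3 and Zfp352 follow, and Tdpoz1 is lowest, with an interval clear of 0 at 60 h only.

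The climb was not even. Between 24 h D-F and 36 h, 4 of 6 probe sets were called higher, beside 5.96% of all: Usp17la by 1.64 (adjusted p = 0.00048), Tcstv1 by 1.60 (adjusted p = 0.0003), Tcstv3 by at least 1.09 (adjusted p = 0.0059) and 1425880_x_at of Zfp352. Between 36 h and 48 h, 0 of 6 were called by limma, also at an unadjusted p under 0.05, beside 16.3% of all. The differences of 48 h from 36 h were -0.31 for Usp17la, with a 95% interval of -0.90 to 0.27, and 0.10 for Tcstv1, with an interval of -0.44 to 0.65. For Zfp352 they were 0.38 in 1425879_at (interval -0.11 to 0.86) and 0.33 in 1425880_x_at (interval -0.21 to 0.86). In both Zfp352 probe sets every 48 h array lay above every 36 h array. The difference was 0.21 for Tcstv3 and, with both means dim, 0.05 for Tdpoz1.

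At 60 h against 48 h, 5 of 6 were called higher, beside 7.98% of all. The differences were 1.83 for Usp17la (adjusted p = 7.3e-05), 1.80 for Tcstv1 (adjusted p = 3.8e-05), 1.90 for Tcstv3 (adjusted p = 9.1e-06) and 1.61 and 1.55 for Zfp352 (adjusted p = 3.8e-05 and 0.00015). Without array C at 60 h they were 2.31, 2.27, 2.40, 2.09 and 2.11, and 5 of 6 were called higher, beside 11.8% of all. Fitted on the 6 arrays of 48 h and 60 h alone, none of these 5 was called (adjusted p = 0.058 to 0.11), where 2.12% of all probe sets were called in either direction.

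At 72 h against 60 h, 0 of 6 were called, beside 9.06% of all, and at an unadjusted p under 0.05 limma gave 4. Without array C at 60 h, 5 of 6 were called lower at 72 h, beside 6.73% of all called lower and 16.7% called in either direction. The differences then were -1.07 for Usp17la (adjusted p = 0.0036), -0.93 for Tcstv1 (adjusted p = 0.0037), -1.12 for Tcstv3 (adjusted p = 6e-05) and -1.03 and -1.15 for Zfp352 (adjusted p = 5.4e-05 and 2.9e-06). With all arrays kept and weighted by limma's array weights, 6 of 6 were called lower, beside 11.7% of all, with -1.01 for Usp17la (adjusted p = 0.00049) and -0.53 for Tdpoz1 (adjusted p = 0.021). The call thus depends on array C at 60 h and on array weights. At 72 h against 48 h, which does not use 60 h, 5 of 6 were higher, beside 7.32% of all, with 1.24 for Usp17la (adjusted p = 0.0048) and 1.34 for Tcstv1 (adjusted p = 0.0012). Without array B at 72 h the call of 1425880_x_at was lost (0.90, adjusted p = 0.055), and with letters pooled that of Usp17la was lost (1.24, adjusted p = 0.21).

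At matched times the letters differed, where A-C are the first array set and D-F the second, so letter and array set cannot be told apart. At 12 h, arrays D-F exceeded arrays A-C in Usp17la by 1.01 (adjusted p = 0.0073), which made 1 of 6 members called beside 32.8% of all probe sets. At 24 h, arrays D-F were higher in Usp17la by 1.94 (adjusted p = 1.2e-05) and in Tcstv1 by at least 1.20 (adjusted p = 0.0011), 2 of 6 beside 28.8%. The 24 h minus 12 h change of arrays D-F exceeded that of arrays A-C by 0.93 for Usp17la (adjusted p = 0.13) and by 0.96 for Tcstv1 (adjusted p = 0.088). By limma 0 of 6 were called for this difference of changes, and 2 at an unadjusted p under 0.05, beside 15% of all probe sets called. What else differed between the arrays of these letters is not in the labels.

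The members' relatives were read to see whether signal could be shared. Members of these families have near-identical copies, so a probe set of any type may read more than its named gene, and probe sequences were not used here. A set annotated with 2 symbols, both of the Usp17l family (1422229_at), averaged 5.47 ± 0.13 at 72 h and 3.42 ± 0.12 at 12 h D-F (SD, n = 3 each) and rose by at least 2.05 (adjusted p = 2.3e-08, limma). At 24 h D-F it averaged 3.61 ± 0.14 (SD, n = 3), a difference of 0.19 as measured that was not called (adjusted p = 0.58), at a time when Usp17la had risen by 2.15. Another with the same symbols (1450547_x_at) rose by at least 1.63 at 72 h (adjusted p = 7.3e-05). A set annotated with 7 symbols, Gm4340 among them (1443961_at), rose by 5.76 at 72 h (adjusted p = 8.4e-18). None of its symbols has the name of a member's family. It was read because Gm4340 is on the list of other two-cell-like genes used below.

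The Zscan4 family, the best known mark of the two-cell-like state, is read by 1457033_at, a set with 6 symbols, several of them Zscan4 genes. It was at 7.23, 8.38 and 7.39 at 24 h A-C, against 6.06, 5.86 and 5.71 at 8 h. It was at 7.43, 7.59 and 7.34 at 12 h D-F, at 10.38, 10.46 and 10.68 at 24 h D-F and at 13.18, 13.16 and 13.23 at 72 h. Like Usp17la it was called at 24 h in both sets. It was higher at 24 h A-C than at 8 h by 1.79 ± 0.23 (adjusted p = 1.1e-06), and higher than at 12 h D-F by 3.05 at 24 h D-F (adjusted p = 1.4e-09) and by 5.74 at 72 h (adjusted p = 3.6e-16). At 60 h array C again was lowest, with 12.87 beside 13.54 and 13.59. Without array C its difference at 60 h from 12 h D-F was 6.11 (adjusted p = 9.2e-16).

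Genes of the Dux family, one of which encodes the DUX factor that switches on genes of the two-cell stage, were read by several sets. Duxf3 was dim at 1430931_at, with both means under 4.73, and its measured differences from 12 h D-F were 0.41 at 60 h (adjusted p = 0.00063; 0.45 without array C at 60 h, adjusted p = 0.00089) and 0.29 at 72 h (adjusted p = 0.011). The set 1453700_s_at, annotated with Duxf3 and 2 other symbols, averaged 6.39 ± 0.31 at 72 h and 5.81 ± 0.09 at 12 h D-F (SD, n = 3 each). It was higher by 0.58 at 72 h (adjusted p = 0.026, limma) and by 0.94 at 60 h (adjusted p = 6e-04), or 1.28 without array C at 60 h (adjusted p = 3e-06). At 24 h D-F, when Usp17la had risen, its difference was 0.07 (adjusted p = 0.85). The Duxbl set 1429099_at was higher at 24 h A-C than at 8 h by 0.91 (adjusted p = 4.6e-06) and at 24 h D-F than at 12 h D-F by 0.85 (adjusted p = 2.1e-05). Its group mean was highest at 36 h, at 9.26, and at 72 h the difference from 12 h D-F was 0.05 (adjusted p = 0.75). Of the other Duxbl sets, 1445710_x_at was also higher at 24 h in both array sets, by 0.79 and 0.85, and 1458329_x_at was called in neither. Whether the levels of the Dux family bear on those of the members was not tested.

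**Figure D3:**
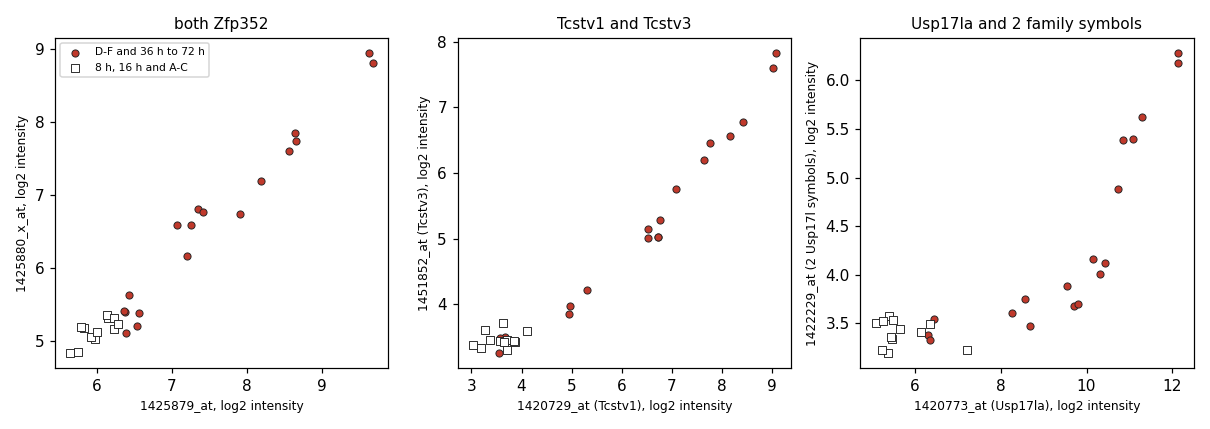
Log2 intensity of 1 probe set against that of another on each of the 30 arrays, filled circles for the second array set and open squares for the first. Both Zfp352 probe sets fall on 1 line (r = 0.985), Tcstv1 and Tcstv3 fall on 1 line once both leave the dim range, and the set with 2 Usp17l symbols is at most 4.16 up to 48 h and at least 4.88 at 60 h and 72 h.

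The probe sets whose pattern was most like a member's were taken by Pearson's r over the 30 arrays, as a description of arrays that share their times. For Tcstv1 they were Gm20767 (r = 0.995), AF067061 (r = 0.994) and D13Ertd608e (r = 0.991), all on chromosome 13 within 22 places of Tcstv1 in the gene order. The last 2 are read by an _x_at and an _s_at set, both types that can match several transcripts. Whether any of these sets shares signal with that of Tcstv1 was not tested. At 72 h against 12 h D-F, Gm20767 was higher by 5.32 and AF067061 by 5.01 (adjusted p = 4.1e-16 and 3.1e-15). For Tcstv3 they were Gm11544 (r = 0.987), the aquaglyceroporin Aqp9 (r = 0.985) and Ubtfl1 (r = 0.985), which encodes an HMG-box protein of the early embryo.

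For Usp17la the most alike were BC080696 (r = 0.995), the arginase Arg2 (r = 0.992) and AF067061 (r = 0.988). At 72 h BC080696 was higher by at least 5.44 and Arg2 by 3.74 (adjusted p = 5.4e-13 and 7.7e-12). For Zfp352 they were Gm11544 (r = 0.982), the zinc finger gene Zfp560 (r = 0.980) and Sp110 (r = 0.973), which encodes a nuclear body protein. For Tdpoz1, whose values are dim, the nearest were 2610206C17Rik (r = 0.810), the DNA repair nuclease Ercc4 (r = 0.801) and Fam90a1a (r = 0.784).

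Other two-cell-like genes came from a list of 43, of which 14 had a probe set of their own, 21 probe sets in all. At 24 h A-C against 8 h, 1 was called higher and 3 lower, beside 17.6% and 13.9% of all probe sets. At 72 h against 12 h D-F, 10 were called higher and 4 lower, beside 23.3% and 30.2%, with a median change of 0.29. By gene, with the brightest probe set of each, 9 of 14 rose and 1 fell, and the median change was 0.58. AF067061 rose by 5.01, Arg2 by 3.74 and by at least 3.20, Ubtfl1 by at least 3.58 and Pramel6, by its _s_at set, by at least 1.95, while Lmx1a, a homeodomain gene, rose by at least 1.17. The Sp110 probe sets disagree, with a rise of 2.39 in 1456493_at, a fall of 0.21 in 1429563_x_at and a measured difference of -0.19 in 1429562_at, where both means are dim.

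Genes known to open the two-cell-like state moved both ways. Of 7 probe sets of 5 activators, 2 were called higher and 4 lower at 72 h than at 12 h D-F, beside 23.3% and 30.2% of all probe sets. By gene, 2 of 5 were higher and 3 lower. Dppa2, which acts upstream of Dux, fell by 0.46 and 0.41 in its 2 probe sets. Its partner Dppa4 fell by 1.02 (adjusted p = 5.1e-11) and Dppa3, a maternal factor, by 1.73 (adjusted p = 4e-09). Nelfa, a subunit of the negative elongation factor, rose by 0.67 (adjusted p = 0.00067), and Gata2 rose by 0.29 in 1450333_a_at (adjusted p = 0.044) and changed by -0.13 in 1428816_a_at (adjusted p = 0.21). Dppa2 also fell at 24 h A-C against 8 h, by 0.90 and 0.73, in the arrays where Usp17la rose. Whether the levels of the activators bear on those of the members was not tested.

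Of 40 probe sets of 17 repressors of that state, 3 were called higher and 22 lower at 72 h, beside 23.3% and 30.2% of all, with a median change of -0.27. By gene, 2 of 17 were higher and 10 lower. The RNA-binding protein gene Lin28a fell by 1.99 and 1.60. Rif1, a regulator of replication timing, fell by 1.53, 0.79 and 0.55 in its called probe sets. Of the PRC1.6 complex, Pcgf6 fell by 1.03, 0.57 and 0.45, L3mbtl2 by 0.69 and Mga by 0.74, 0.54 and 0.29 in the called sets, while E2f6 rose by 0.55 and 0.48.

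**Figure D4:**
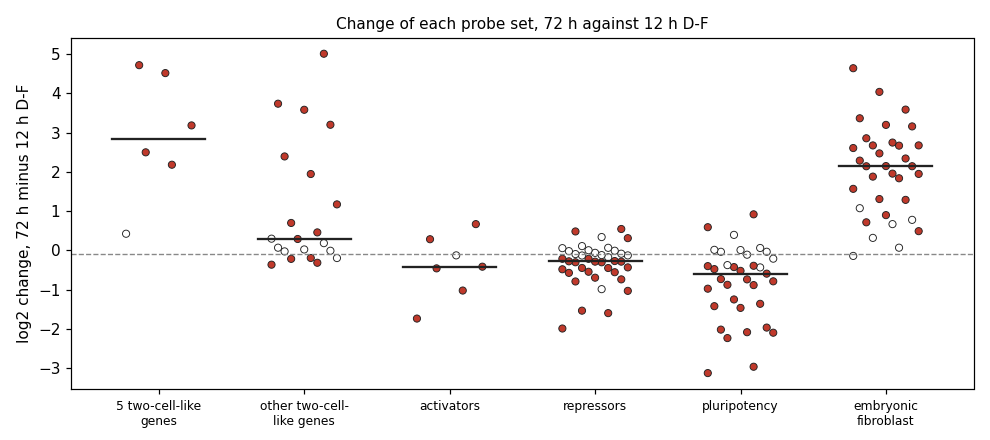
Log2 change at 72 h minus 12 h D-F (vertical axis) of every probe set of the 5 two-cell-like genes and of 5 gene lists, filled where the adjusted p was under 0.05. Bars are list medians and the dashed line is the median of all probe sets (-0.08); the members' median is 2.84, that of the repressors -0.27 and that of the embryonic fibroblast list 2.14.

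Markers of other cells moved over the same hours. At 72 h against 12 h D-F, 28 of 34 embryonic fibroblast probe sets were higher and none lower, 23 of 39 endoderm sets were higher and 4 lower, and 2 of 35 pluripotency sets were higher and 23 lower, beside 23.3% of all probe sets higher and 30.2% lower. The mean log2 of the fibroblast list was 10.14 to 11.08 at 72 h and 8.05 to 8.96 at 12 h D-F, and that of the endoderm list 9.65 to 10.03 at 72 h and 8.36 to 8.51 at 12 h D-F. Between 36 h and 48 h, where no member was called, the fibroblast mean was 10.84 at 48 h and 9.36 at 36 h. Between 48 h and 60 h, where 5 member probe sets were higher at 60 h, it was 10.28 at 60 h and 10.84 at 48 h. At 36 h, 48 h and 60 h the endoderm mean was 8.99, 9.31 and 9.84. That of the RA response list was 10.92, 10.92 and 11.52, and that of the pluripotency list 10.98, 10.84 and 10.21. On arrays A, B and C of 60 h the fibroblast mean was 9.76, 10.54 and 10.53, with 11.64, 11.59 and 11.34 for the RA response list. The part of these other cells in the members' results was not tested.

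Of 15 probe sets of RA response genes, such as Crabp2 and Hoxb1, 10 were higher and none lower at 24 h A-C against 8 h, where 1 of 6 member probe sets and 17.6% of all were higher. At 24 h against 12 h in D-F, 12 of 15 were higher, where 2 of 6 members and 12.9% of all were. The mean of the list at 8 h, 12 h, 16 h and 24 h A-C was 8.61, 9.09, 9.65 and 9.93. Over the same groups Usp17la was flat to 16 h, with means of 5.31, 5.35 and 5.44, and stood at 6.56 at 24 h.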

How the data were processed

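The values used are log2 intensities of 45101 probe sets, as processed by the authors before they were deposited. The submitters' processing notes name limma 3.8.3. The background correction, probe summary and normalization are not given in the sources used here, so how they set the bottom of the scale is unknown. After leaving out 64 controls, 9160 probe sets without a gene symbol and 932 that carry more than 1, 34945 were tested. Symbols came from the platform annotation. None of the 30 pairs of arrays of a group was identical.

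The probe sets were fitted with limma 3.58.1 in R 4.3.3, as 1 linear model of 10 groups of 3 arrays with no block, and 19 pairs of groups were compared. Calls used Benjamini-Hochberg adjusted p under 0.05. Probe sets with several symbols entered a second fit for the family values. The fit was tested on simulated data at 72 h against 12 h D-F over 34945 probe sets, and of 50 probe sets per size it called 76% when the shift was 0.5 log2, 98% for 1 log2 and 100% for 2 log2. It also called 10 unchanged ones. The simulated noise was normal, independent between arrays and of the same spread in every group of a probe set. Real spreads differ, as for Tcstv1 with SD 0.07 at 12 h D-F and 0.81 at 60 h, so these shares hold for the simulated setting only. Alternatives are listed in the closing section.

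The members, the gene lists and the array sets were chosen with earlier results of these data known. Every member probe set is named. Of each list up to 6 called genes with the largest change, any activator and any Zscan4, Tdpoz, Usp17l or Dux gene may be named, and for each member the 3 probe sets most like it.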

Additional observations from a re-analysis of the deposited data

How the results depend on the processing

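The member counts of all 19 comparisons of 2 groups and both F tests, but not of the difference of changes between letters, were recomputed with 1 probe set per gene, without cross-hybridising types, with arrays centred or quantile normalised again, without dim probe sets (mean below the 30th percentile), with another variance prior, with array weights, on only the groups compared, with letters pooled in 8 time groups, with the array set as a block, with the letter as a block and with each array of the groups compared left out. For 10 comparisons (36 h and 60 h against 12 h D-F, the steps after 24 h, 72 h against 48 h, and those among 12 h A-C, 16 h and 24 h A-C) this was added after seeing the data. No called member count turned direction. Without dim probe sets only 3 of 6 member probe sets are tested, and the counts were 1 at 24 h against 12 h D-F, 3 at each of 36 h, 48 h, 60 h and 72 h, 3 at 60 h and at 72 h against 48 h, 3 at 72 h against 8 h, 1 at 24 h D-F against 24 h A-C and 3 by the F test of the second set. Array weights gave 1 at 16 h against 8 h, 2 at 12 h D-F against A-C and 4 at 24 h, and only the groups compared gave 2, 2 and 5. The calls at 16 h against 8 h were of Zfp352 probe sets, lower at 16 h. Both settings also gave 3 at 24 h against 12 h D-F, adding Tcstv3. Array weights gave 6 at 72 h against 60 h, where leaving out array C at 60 h gave 5, and only the groups compared gave 0 at 60 h against 48 h and 2 at 24 h against 12 h A-C. Pooled letters gave 2 at 24 h against 8 h, 12 h and 16 h and 2 by the F test of the first set, and the array set as a block gave 2 by that F test and 2 at 24 h against 12 h. The causes were not tested.

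For the other two-cell-like list at 24 h A-C against 8 h (4 called, 1 higher and 3 lower), the counts were 2 with 1 probe set per gene, 2 without _s_at, _x_at and _a_at sets, 8 with array weights, 7 on only the groups compared and 8 with pooled letters. With the array set as a block they were 5, and the balance turned to 3 higher and 2 lower. At 72 h against 12 h D-F (14 called) they were 7 without _s_at, _x_at and _a_at sets, 8 without _s_at and _x_at sets and 9 without dim sets, with fewer sets tested in each. With each array of the groups compared left out in turn, member counts were 0 to 0 at 12 h A-C and at 16 h against 8 h, 1 to 1 at 24 h A-C, 2 to 2 at 24 h D-F, 5 to 5 at 48 h, 5 to 6 at 72 h, 5 to 5 at 72 h against 8 h, 1 to 1 and 2 to 2 between letters at 12 h and 24 h, and 1 to 1 and 5 to 6 by the F tests. They were 5 to 5 at 36 h and 5 to 6 at 60 h against 12 h D-F, 3 to 4 at 36 h against 24 h D-F, 0 to 0 at 48 h against 36 h, 5 to 5 at 60 h against 48 h, 0 to 5 at 72 h against 60 h, 4 to 5 at 72 h against 48 h, 0 to 0 at 16 h against 12 h A-C, and 1 to 1 at 24 h A-C against 12 h A-C and 16 h. The list gave 3 to 4 at 24 h and 12 to 15 at 72 h. Arrays outside the groups compared also enter the variance of the fit. Without array C at 60 h, 3 of 6 members were called at 24 h D-F against 12 h D-F, beside 27.3% of all probe sets.

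In the 12 comparisons whose groups share letters, the deviations of same-letter arrays correlated between -0.27 and 0.52, and in 0 of the 12 did every letter exceed 0.1, so letters were not taken as pairs. With the letter as a replicate block the member counts were 0, 0 and 1 against 8 h at 12 h A-C, 16 h and 24 h A-C, and 2, 5 and 5 against 12 h D-F at 24 h, 48 h and 72 h. The block changed none of the 19 member counts, and gave 4 and 15 for the list. Comparisons of letters cannot be made with letters pooled or the array set as a block. Dim signal limits Tcstv1 and Tcstv3 throughout the first set and at 12 h D-F. It also limits Tcstv3 at 24 h D-F, and Tdpoz1 throughout.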
